A study of Mus musculus with 2 samples.

Results

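The genes described here are 9 of the 19144 gene rows of a single-cell count table, namely B2m, H2-K1, H2-D1, Ifitm2, Ifitm3, Ifi203, Mndal, Bst2 and Ccl2. They are MHC class I and interferon-inducible genes chosen with their measured levels in these same cells known, and those levels are therefore given as a description with no test. The cells came from primary neurospheres, floating colonies grown for 7 to 10 days from the lateral ventricle walls of CD1 mouse embryos, an outbred strain for which the labels name no altered allele. The medium contained leukemia inhibitory factor (LIF) at 10 ng/mL, and an additive written as EFH was also present, which the labels leave unexplained. The labels list 2 samples of this single group, with no untreated or interferon-treated culture, and the 4000 barcodes of the deposited table carry no sample name. The 2 samples were therefore analysed as 1, the spread between cultures is unknown, and no p-value was computed. Cells were captured by Drop-seq, which attaches a cell barcode and a unique molecular identifier (UMI) to each captured polyadenylated RNA near its 3′ end. The series text speaks of nuclei and the protocol of dissociated cells, and every barcode that passed the filters is called a cell below.

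Class I molecules display peptides from inside the cell to CD8+ T cells and are built from a heavy chain, a shared light chain and a peptide delivered by a transporter. Interferons bind their receptors, activate JAK kinases and STAT transcription factors, and through them raise a large set of antiviral genes, of which some also have a basal level in unstimulated cells. LIF signals through a different receptor that also uses JAK kinases, mainly with STAT3. Class I genes are known for low levels in the developing brain relative to lymphoid tissue.

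Barcodes needed 500 or more detected genes and no more than 10% of UMIs from mitochondrial genes, which kept 3765 of 4000, with a median of 3869 UMIs and 17395968 UMIs in all. The radial glia markers summed to 13680 CPM (UMIs of a gene or list per 1000000 UMIs of all genes), with all 10 genes present. Microglia and macrophage markers summed to 3.68 CPM, with 6 of 14 genes in the table and no row for Aif1, Csf1r, Tmem119, Tyrobp or the C1q genes. Endothelial markers summed to 11.1 CPM, meningeal fibroblast markers to 6.61 CPM and T and NK cell markers to 2.87 CPM. Mural cell markers summed to 44.0 CPM, and that list shares Cspg4 with the oligodendrocyte precursor markers. Intervals below are exact 95% intervals, Poisson for levels, Clopper-Pearson for shares of cells and conditional binomial for ratios, and they cover counting error only.

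The promoters of the class I genes and of 2 inducible members are shown first because they hold the sequence elements by which these genes are usually grouped. Each is a RefSeq window on GRCm38.p6 from 250 bases before to 50 bases after the annotated start, printed 5′ to 3′ on the strand of the gene. Capitals mark matches on either strand to TTTCNNTT (the core of interferon response elements), GGGATTCCC and GGGACTTTC (2 forms of a kappa B site), TGACGCG (a CRE-like box) and CCAAT.
B2m, chr2:122147437-122147736, plus strand: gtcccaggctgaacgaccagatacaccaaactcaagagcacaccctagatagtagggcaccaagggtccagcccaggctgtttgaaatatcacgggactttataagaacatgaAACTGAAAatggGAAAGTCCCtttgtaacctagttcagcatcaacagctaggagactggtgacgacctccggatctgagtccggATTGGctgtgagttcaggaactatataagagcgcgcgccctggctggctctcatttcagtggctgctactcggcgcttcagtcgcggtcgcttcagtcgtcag
H2-K1, chr17:34000284-34000583, minus strand: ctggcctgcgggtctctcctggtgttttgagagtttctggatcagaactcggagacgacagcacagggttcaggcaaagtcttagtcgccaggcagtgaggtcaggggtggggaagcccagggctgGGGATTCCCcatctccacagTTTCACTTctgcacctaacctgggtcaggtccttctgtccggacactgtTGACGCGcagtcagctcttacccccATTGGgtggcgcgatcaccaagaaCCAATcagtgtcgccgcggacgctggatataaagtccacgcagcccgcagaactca
H2-D1, chr17:35262844-35263143, plus strand: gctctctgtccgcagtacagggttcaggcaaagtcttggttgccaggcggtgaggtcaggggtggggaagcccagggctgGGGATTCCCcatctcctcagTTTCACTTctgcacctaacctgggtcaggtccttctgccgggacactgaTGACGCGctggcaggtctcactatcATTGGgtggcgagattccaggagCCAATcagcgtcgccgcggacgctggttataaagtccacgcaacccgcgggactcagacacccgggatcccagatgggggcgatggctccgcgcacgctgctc
Bst2, chr8:71537423-71537722, minus strand: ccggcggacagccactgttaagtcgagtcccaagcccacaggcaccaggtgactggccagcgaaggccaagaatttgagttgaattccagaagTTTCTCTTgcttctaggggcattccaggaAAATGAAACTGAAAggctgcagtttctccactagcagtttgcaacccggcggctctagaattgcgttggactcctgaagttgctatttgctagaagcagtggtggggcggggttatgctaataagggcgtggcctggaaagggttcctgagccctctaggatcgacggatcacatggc
Ifitm3, chr7:141010695-141010994, minus strand: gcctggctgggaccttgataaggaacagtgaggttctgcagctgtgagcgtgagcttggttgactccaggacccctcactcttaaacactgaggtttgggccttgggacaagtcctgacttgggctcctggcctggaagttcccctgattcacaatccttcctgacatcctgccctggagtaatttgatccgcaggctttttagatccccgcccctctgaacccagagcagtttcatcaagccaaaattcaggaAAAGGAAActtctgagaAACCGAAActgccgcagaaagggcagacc
The H2-K1 and H2-D1 windows shared GGGATTCCC followed by TTTCACTT, a fixed form of TTTCNNTT that lies wholly inside it, and then TGACGCG and 2 CCAAT boxes. In H2-K1 the kappa B match lay 116 to 124 bases before the start and TTTCACTT 97 to 104 bases before it. In H2-D1 the same elements lay 162 to 170 and 143 to 150 bases before the start. Across 253 aligned bases the 2 windows were 87.7% identical, with 31 differing bases. B2m, the light chain gene, had TTTCNNTT 130 to 137 bases before the start, the other kappa B form GGGACTTTC 117 to 125 bases before it and 1 CCAAT box. Bst2 had 3 matches to TTTCNNTT, of which 2 overlap each other, and Ifitm3 had 2 just after its start.

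These letters differ widely in how common they are. TTTCNNTT was found in 23.9% of 32851 RefSeq promoter windows and CCAAT in 37.4%, so neither sets a promoter apart. TTTCACTT was found in 1.60%, TGACGCG in 1.91%, and GGGATTCCC and GGGACTTTC in 0.353% each. In the table's windows for the members, 8 genes had TTTCNNTT in at least 1 window, H2-K1 and H2-D1 alone had TTTCACTT, GGGATTCCC and TGACGCG, and B2m alone had GGGACTTTC. RefSeq lists a further start for H2-K1, Ifi203 and Mndal, so the members have 11 windows, of which 10 had TTTCNNTT. The further windows are counted here but not printed, and that of Ifi203 held none of these motifs. The form TTCNNNGAA, a STAT binding core, was in 8.30% of all windows and in those of Ifitm3 and Bst2, where it is not capitalised. A match describes letters in a window and says nothing on whether a factor was bound there.

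B2m and H2-K1 were the members with the highest levels and the most cells. B2m, the light chain of every class I molecule (chr2:122147686-122153083, plus strand, GENCODE M21 on mm10), had 4538 UMIs, 261 CPM (253 to 269), and ranked 720 of all rows. It was seen in 2168 of 3765 cells, 57.6% (56.0% to 59.2%), with 1009 cells holding 1 UMI, 576 holding 2 and 583 holding 3 or more. H2-K1, a classical heavy chain (chr17:33996017-34000347, minus strand), had 4073 UMIs, 234 CPM (227 to 241), in 52.99% of cells (51.4% to 54.6%). H2-D1, the other classical heavy chain measured (chr17:35262730-35267499, plus strand), had 990 UMIs, 56.9 CPM (53.4 to 60.6), in 20.1% of cells (18.8% to 21.4%). The B2m level was 1.11 times that of H2-K1 (1.07 to 1.16) and 4.58 times that of H2-D1 (4.28 to 4.91), and the H2-K1 level was 4.11 times that of H2-D1 (3.84 to 4.41). Because each molecule is tagged near its 3′ end, these UMI ratios do not scale with transcript length, but how well each 3′ end was captured and mapped is not known. Together B2m, H2-K1 and H2-D1 held 70.9% of the 13550 UMIs of the members, and 77.8% of cells had at least 1 of their UMIs.

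The Ifitm genes, which encode small membrane proteins that hinder fusion of enveloped viruses, lay between H2-K1 and H2-D1. Ifitm3 (chr7:141009586-141010770, minus strand) had 1615 UMIs, 92.8 CPM (88.4 to 97.5), in 22.95% of cells (21.6% to 24.3%). Ifitm2 (chr7:140954837-140955987, minus strand) had 1339 UMIs, 77.0 CPM (72.9 to 81.2), in 22.97% of cells (21.6% to 24.4%). Ifitm3 was thus 1.21 times as high as Ifitm2 (1.12 to 1.30), yet it was found in almost the same number of cells, 864 against 865, since it had 155 cells with 3 or more UMIs and Ifitm2 had 111. Of the last 500 transcript bases of Ifitm2, 41.9% of 50-base windows were also present in another annotated gene, most often Gm45717, against 14.0% for Ifitm3, so the Ifitm2 count is uncertain. The share was 9.53% for H2-D1, 0.443% for H2-K1 and 0 for B2m, Bst2 and Ccl2.

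The remaining members were low and sparse. Ifi203 (chr1:173920407-173942672, minus strand) and Mndal (chr1:173849126-173942491, minus strand) belong to the HIN-200 family of interferon-inducible nuclear proteins, which includes DNA sensors. Ifi203 had 383 UMIs, 22.02 CPM (19.9 to 24.3), in 157 cells, 4.17% (3.55% to 4.86%). Mndal had 189 UMIs, 10.9 CPM (9.37 to 12.5), in 98 cells, 2.60% (2.12% to 3.16%). Bst2 (chr8:71534255-71537456, minus strand), also called tetherin, holds budding virions at the cell surface, and it had 318 UMIs, 18.3 CPM (16.3 to 20.4), in 6.64% of cells (5.87% to 7.48%). Ccl2 (chr11:82035571-82037453, plus strand), a secreted chemokine that draws monocytes and an NF-kB target, had 105 UMIs, 6.04 CPM (4.94 to 7.31), in 86 cells, 2.28% (1.83% to 2.81%). Of those 86 cells, 72 held a single Ccl2 UMI, 10 held 2 and 4 held more.

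**Figure D1:**
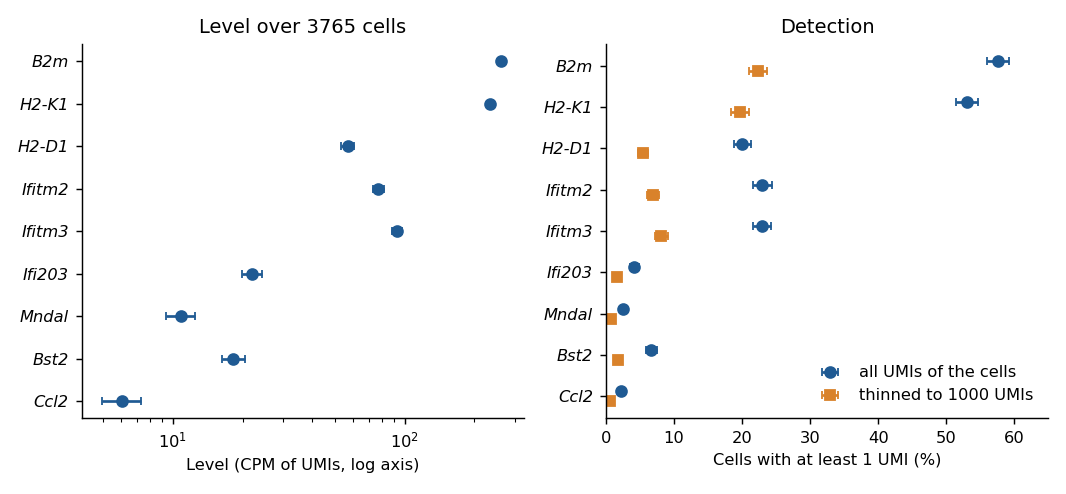
Left, level of each member summed over 3765 cells in CPM on a log axis; right, percent of cells with at least 1 UMI, from all UMIs (circles) and after thinning each of 3576 cells to 1000 UMIs (squares). Bars are exact 95% intervals for counting error. B2m and H2-K1 stand at 261 and 234 CPM and the other members lie between 6.04 and 92.8 CPM.

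Detection moved with depth, as the detection panel shows. After each cell was thinned to 1000 UMIs, which left 3576 cells and set aside 189 shallower ones, B2m was found in 22.3% of cells, H2-K1 in 19.7% and H2-D1 in 5.45%. At that depth Ifitm3 was found in 8.14%, Ifitm2 in 6.94%, Bst2 in 1.73%, Ifi203 in 1.59%, Mndal in 0.727% and Ccl2 in 0.615%. The order of the members by detection was the same before and after thinning except for the 2 Ifitm genes, whose unthinned shares differed by 1 cell. No cell class that should lack B2m was available to set its background. Among the 51 cells with at least 3 neuron markers (median 3119 UMIs), 43.1% had B2m (29.3% to 57.8%), 19.6% had Ifitm3 and 1 cell had Ifi203. Among the 2814 cells with no neuron marker (median 3609.5 UMIs), 55.7% had B2m, 21.8% had Ifitm3 and 3.62% had Ifi203. Mndal and Ccl2 had no UMI in the 51 cells. By the limit of 3 counts this allows up to 5.88% of such cells to hold one (6.98% by the Clopper-Pearson limit). The 2814 cells had Mndal in 2.27% and Ccl2 in 2.20%, so 51 cells are too few to show a difference. The part of free RNA in these shares was not tested. The 117 cells with 2 neuron markers lie next to this cutoff and were deeper (median 5372 UMIs), and Ifi203 was found in 11.97% of them and Ccl2 in 5.13%.

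Members differed in how unevenly cells held them. At 1000 UMIs per cell the variance over the mean was 1.53 for Ifi203, 1.22 for Ifitm3, 1.21 for Mndal, 1.19 for Ifitm2, 1.10 for B2m, 1.08 for H2-K1, Bst2 and Ccl2, and 1.06 for H2-D1. The 5595 genes with at least 500 UMIs had a median of 1.05, with 1.18 at the 95th and 1.45 at the 99th percentile. Ifi203 therefore lay above the 99th percentile of these genes, though with fewer UMIs than any of them. At least 2 Ifi203 UMIs were found in 8 thinned cells, against 0.657 cells for a Poisson count of the same mean. Without thinning, the 37 cells with most Ifi203 UMIs held 57.4% of its UMIs, and the corresponding 37 cells held 66.7% of Mndal and 7.32% of B2m UMIs. The cell with most Ifi203 UMIs held 25 of them among 52570 UMIs, and it also held the most Ifitm3 UMIs, 17. Doublets were not removed, and their part in such cells was not tested.

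Lists of related genes were measured beside the members. Of 21 class I chain genes, 18 had a row and 5 had at least 50 UMIs, and besides B2m, H2-K1 and H2-D1 these were Cd1d1, a lipid-presenting relative, with 472 UMIs and H2-T22 with 100. H2-Q7 had 47 UMIs and H2-T23 had 35. The peptide-loading list had 12 of 13 measured genes at 50 UMIs or more and summed to 2133 CPM, of which Canx (811 CPM), Calr (671 CPM) and Pdia3 (451 CPM) are general chaperones of the endoplasmic reticulum. The dedicated genes of that list were lower: Psme1, a proteasome activator subunit, had 66.5 CPM, the immunoproteasome subunits Psmb10, Psmb9 and Psmb8 had 50.4, 4.08 and 1.78 CPM, and the peptide transporter genes Tap1 and Tap2 had 7.70 and 3.91 CPM.

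The receptors and signal carriers of the interferon pathway were detected. Ifnar1 and Ifnar2, the type I receptor chains, had 68.9 and 31.3 CPM, Ifngr1 and Ifngr2, the interferon gamma receptor chains, had 32.1 and 31.2 CPM, and Jak1, the kinase both receptors use, had 62.8 CPM. Stat2 and Irf9, which act in the factor that binds interferon response elements, had 8.28 and 4.83 CPM. Of 10 interferon ligand genes, Ifnk and Ifne were the ones with a row, with 2 and 1 UMIs. All 11 receptor and JAK-STAT genes in the table had at least 50 UMIs.

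The type I interferon-induced list summed to 58.7 CPM (55.2 to 62.5) over 23 of 30 genes, with 5 genes at 50 UMIs or more and 10 under 10 UMIs. Eif2ak2, the RNA-activated kinase PKR, held 506 of its 1022 UMIs, followed by Ifit2 with 108, Ddx58 with 94 and Rsad2 with 83. Isg15, a ubiquitin-like modifier, had 7 UMIs, Irf7 and Oasl2 had 2, and Ifit1, Ifit3, Oasl1 and Usp18 had 1 each. The interferon gamma-induced list summed to 118 CPM, of which the guanylate-binding protein genes Gbp7 and Gbp3 held 60.6 and 38.0 CPM, while Irf1 had 5.63 CPM, Irgm1 had 4.48 CPM and Cxcl9 had 1 UMI. Within the members' own families the same spread was seen: Ifitm10 had 58 UMIs, Ifitm7 had 16 and Ifitm5 had 1, and in the HIN-200 family Ifi202b had 71, Pyhin1 had 9, Ifi204 had 2 and Aim2 had 1. For comparison, the median gene of the whole table had 114 UMIs, and 11057 of 19144 rows had at least 50. With no interferon-treated culture, these levels do not show which members respond to interferon in these cells.

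**Figure D2:**
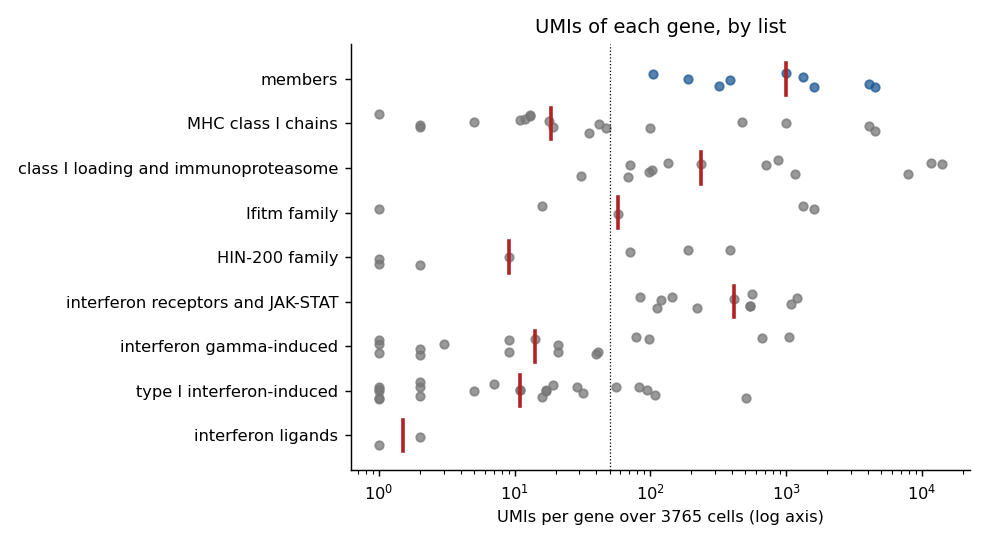
UMIs of each gene over 3765 cells on a log axis, with 1 point per gene, the members in blue on top and the other lists below; red bars are list medians and the dotted line marks 50 UMIs. Genes with no row or no UMI are not drawn. The median gene had 990 UMIs among the members, 415 among receptors and JAK-STAT genes, and 11 among type I interferon-induced genes.

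Among the NF-kB targets and chemokines, 7 of 15 measured genes had at least 50 UMIs, and Ccl2 had the fewest UMIs of these 7. Nfkbia, the inhibitor that NF-kB itself induces, had 1417 UMIs and Cx3cl1, a membrane-bound chemokine, had 432. Nfkb2, an NF-kB subunit, had 287 and Vcam1, an adhesion molecule, had 190, followed by Nfkb1 with 165 and Relb with 119. Ccl7 had 7 UMIs, Cxcl10 had 9, Tnfaip3 had 6, Cxcl1 had 2 and Il6 had 1. Of the nucleic acid sensor list, 7 of 9 measured genes had at least 50 UMIs, led by Irf3 with 732, Tbk1 with 368, Tmem173 (STING) with 277 and Mavs with 206.

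Markers of other cell types were read in cells with the sparse members. In the 86 cells with Ccl2 the 6 measured microglia and macrophage markers had 0 UMIs, against 3.81 CPM in the cells without Ccl2. In the 98 cells with Mndal these markers had 2 UMIs, in the 157 cells with Ifi203 also 2, and in the 250 cells with Bst2 they had 4. The T and NK cell markers, with 2 of 9 genes measured, were at 6.84 CPM in cells with Ccl2 and 2.74 CPM in cells without it, from 4 UMIs. They were at 6.65 CPM in cells with Ifi203 and 2.59 CPM in cells without it, and at 6.13 CPM in cells with Bst2 and 2.50 CPM in cells without it. Endothelial markers were at 19.1 CPM in cells with Ifi203 and 10.5 CPM in cells without it. They were at 16.7 CPM in cells with Bst2 and 10.4 CPM in cells without it. For Mndal and Ccl2 they were lower, at 9.25 and 10.3 CPM in cells with the gene and 11.2 and 11.1 CPM in cells without it. All these rest on 30 UMIs or fewer in the cells with the member. Cells with Ccl2 had a median of 5966 UMIs, against 3835 in cells without it, and the part of these markers in the members' values was not tested.

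Cycling cells were then set against non-cycling cells. A cell was called cycling when it had at least 1 UMI of Mki67, Top2a, Cdk1, Rrm2, Pcna or Ube2c after thinning to 1000 UMIs, which gave 2123 cycling cells (59.4%, median 4369 UMIs) and 1453 non-cycling cells (median 3586 UMIs). Cells called non-cycling may include cycling cells missed at this depth, since before thinning they held 393 Top2a UMIs, against 7503 in cycling cells. The 9 members together stood at 755 CPM in cycling cells and 829 CPM in non-cycling cells, a ratio of 0.911 (0.880 to 0.944). A difference of at least 1.5-fold was called, and of 11036 genes with at least 50 UMIs 12.4% were called, 6.53% as higher and 5.91% as lower in cycling cells. Of the members, 1 of 9 was called, Ccl2, which was lower. Ratios were below 1 for 8 of 9 members, against 56.8% of all these genes, and the members' median ratio was 0.849, against 0.968 for all. Since the members were chosen with these data known, neither count is support for a difference of the set.

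The members are given by role, the class I genes first. B2m had 247 CPM in cycling cells (237 to 256) and 290 CPM in non-cycling cells (277 to 304), a ratio of 0.849 (0.800 to 0.902). H2-K1 was the 1 member with a ratio above 1, with 241 CPM in cycling cells (232 to 250) and 221 CPM in non-cycling cells (209 to 233), a ratio of 1.09 (1.02 to 1.17). H2-D1 had 54.5 CPM in cycling cells and 61.8 CPM in non-cycling cells, and its ratio interval, 0.774 to 1.01, included 1. Over all 15 other ways of making the comparison, the B2m ratio stayed between 0.700 and 0.900 and the H2-K1 ratio between 1.01 and 1.20, whereas that of H2-D1 fell on either side of 1. Each of these ratios was within 1.5-fold, and with thinned UMIs summed the intervals of B2m (0.790 to 1.03) and H2-K1 (0.990 to 1.32) both included 1.

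Ifitm2 had 71.2 CPM in cycling cells and 88.3 CPM in non-cycling cells, a ratio of 0.806 (0.721 to 0.901). Ifitm3 had 87.5 CPM in cycling cells and 104 CPM in non-cycling cells, a ratio of 0.840 (0.759 to 0.930), but its ratio was 1.05 (0.841 to 1.32) when every cell was given the same weight by summing thinned counts. Ccl2 had 54 UMIs, 4.84 CPM, in cycling cells and 50 UMIs, 8.24 CPM, in non-cycling cells, a ratio of 0.587 (0.392 to 0.880). With thinned counts Ccl2 rested on 11 UMIs in cycling cells and 12 in non-cycling cells, and the interval of its ratio, 0.251 to 1.55, included 1. Mndal had a ratio of 0.733 (0.544 to 0.992), Ifi203 of 0.942 (0.761 to 1.17) and Bst2 of 0.990 (0.782 to 1.26). The Bst2 ratio was not stable, and it lay below 1 in 11 of 15 alternatives. It was 0.695 (0.553 to 0.874) with another seed and 1.27 (0.904 to 1.83) when the call was made at 3000 UMIs. For Ifi203 the ratio lay below 1 in 14 of 15 alternatives but ranged widely, being 0.544 when the call was made at 2000 UMIs, 0.631 with another seed and 1.35 (0.781 to 2.37) among cells at or under the median depth.

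Genes of the same pathways are given for comparison. Of all 11036 genes, 6.53% were called higher and 5.91% lower in cycling cells. Among type I interferon-induced genes Rsad2, the antiviral protein viperin, was the 1 of 5 called. It had 34 UMIs, 3.04 CPM, in cycling cells and 48 UMIs, 7.91 CPM, in non-cycling cells. Of the 11 receptor and JAK-STAT genes Il10rb and Tyk2 were called, both lower in cycling cells. Their ratios were 0.601 (0.412 to 0.879) and 0.606 (0.410 to 0.899), each from 62 UMIs or fewer per group. Of 12 loading and immunoproteasome genes 0 were called, by this fold rule with no test, and their ratios lay between 0.703 and 1.42. Psmb10 had a ratio of 0.739 (0.645 to 0.848), below the 0.849 of B2m. In the HIN-200 family Ifi202b was called, with a ratio of 0.575 (0.350 to 0.948). Of 8 astrocyte markers with at least 50 UMIs, 3 were called lower in cycling cells (Slc1a2, S100b and Apoe) and 0 higher by this fold rule, with ratios between 0.359 and 1.36, the highest being that of Gja1. Their part in the members' ratios was not tested.

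A graded comparison used more of the cell cycle. Each of the 3055 cells with at least 2000 UMIs was thinned to 2000, ranked by its UMIs of 54 G2/M genes or of 43 S phase genes, and divided into 5 bins of 611 cells. In the order lowest to highest G2/M bin, Ifitm2 had 104, 88.4, 81.2, 65.2 and 61.1 CPM, a steady decline. Ccl2 had 12.5, 8.88, 4.66, 4.48 and 2.46 CPM, from 36, 26, 14, 16 and 10 UMIs. The ratio of the highest to the lowest bin was 0.590 for Ifitm2 (0.497 to 0.701) and 0.198 for Ccl2 (0.0875 to 0.407). The Ccl2 ratio was 0.0811 without the 189 deepest cells and lay between 0.182 and 0.271 under the other 3 alternatives, so its direction held in all 4.

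B2m declined along the same bins, with 222 CPM in the highest and 303 CPM in the lowest G2/M bin, a ratio of 0.733 (0.667 to 0.805). H2-K1 had 237 CPM in the highest and 215 CPM in the lowest bin, a ratio of 1.10 (0.994 to 1.22). By S phase genes, Ifitm3 had 78.9 CPM in the highest bin and 125 CPM in the lowest, a ratio of 0.630 (0.535 to 0.741). The ratios of Ifi203 and Mndal were 0.464 (0.311 to 0.684) and 0.370 (0.207 to 0.638) by S phase genes, and 0.957 (0.715 to 1.29) and 0.886 (0.587 to 1.34) by G2/M genes. Neither followed the S phase bins steadily, since both were highest in the second bin, where Ifi203 had 39.1 CPM and Mndal 18.1 CPM. For Ccl2 the S phase ratio was 0.595, and its interval, 0.324 to 1.07, included 1. Differences between the 2 rankings were not tested. The median depth was 5581 UMIs in the highest and 3998 UMIs in the lowest G2/M bin, and the part of depth in these ratios was not tested.

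**Figure D3:**
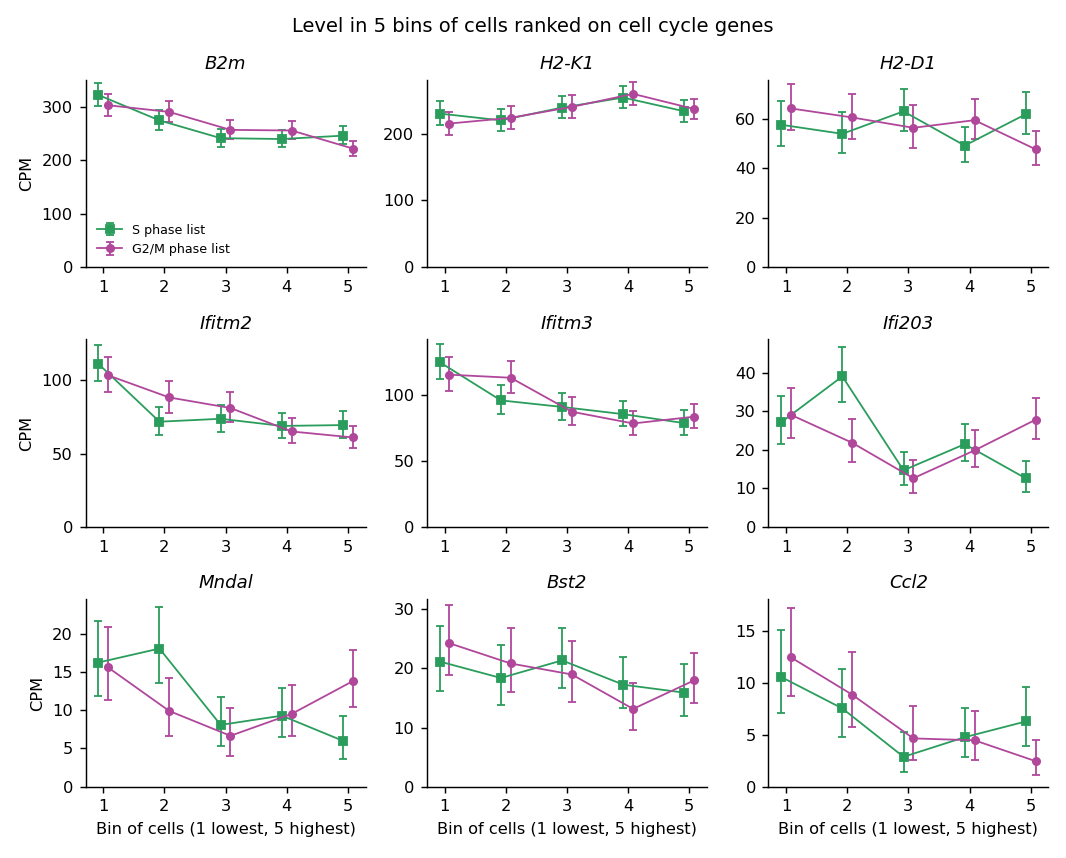
Level of each member in CPM in 5 bins of 611 cells, from lowest (1) to highest (5) by UMIs of S phase genes (squares) or G2/M genes (circles) after thinning to 2000 UMIs; bars are exact 95% Poisson intervals and axes start at 0. Ifitm2 lies at 104 CPM in the lowest and 61.1 CPM in the highest G2/M bin, Ccl2 at 12.5 and 2.46 CPM, and H2-K1 at 215 and 237 CPM.

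Co-variation among the members was examined at equal depth, across the 3576 cells thinned to 1000 UMIs. The 36 pairs had a mean Pearson r of 0.0192 and a median of 0.00704. A value of at least 0.05 was reached by 0.536% of the 15649215 pairs of genes with at least 500 UMIs, by 1 of the 36 member pairs, Ifi203 with Mndal, and by 0 of the 10 pairs among the 5 members with at least 500 UMIs, a description with no test. B2m and H2-K1, whose proteins join in 1 complex, had an r of 0.0430, at the 98.8th percentile of those pairs of genes with at least 500 UMIs. Both were in 172 cells, where the product of their shares gives 157. Ifitm2 and Ifitm3 had an r of 0.0292, at the 94.7th percentile, with 29 cells against 20.2. For scale, pairs known to vary together reached 0.271 for Top2a with Mki67, 0.255 for Bnip3 with Vegfa and 0.0757 for Mcm6 with Mcm5 in the same thinned cells. In counts this sparse, values of this size are no finding, and the cells share 1 table and an equal depth.

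Genes outside the set that came closest to each member were also weakly related. For B2m the 5 highest r among 5590 genes were those of Apoe (0.0820), Kcnj10 (0.0662), Cst3 (0.0633), 4921524J17Rik (0.0626) and Erlec1 (0.0618). H2-K1 was closest to Trappc1 (0.0688), Cdipt, Mrpl52, Acadvl and Scd2, and H2-D1 to Ptdss2 (0.0763), Eif4g2, Cdc123, Ilk and Maoa. Ifitm2 was closest to Gap43 (0.0825), Il1rap, Sparc, Pdgfa and Lamp1, and Ifitm3 to Spr (0.0823), Cdc42ep1, Prkacb, Ppid and Ccnd1. The sum of B2m, H2-K1 and H2-D1 was closest to Slc25a46 (0.0649), Jam2, Erlec1, Cst3 and Scd2. The lists of the 3 class I genes had no gene in common. Each list takes 5 of 5590 genes, so the lack of a shared gene is no finding about them.

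**Figure D4:**
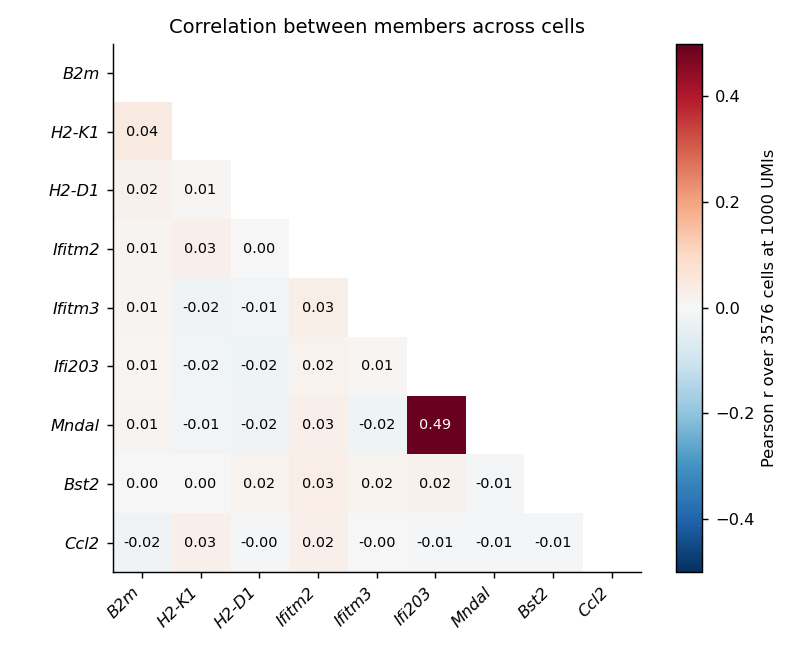
Pearson r between each pair of members across 3576 cells thinned to 1000 UMIs, with the value printed in each square and the colour scale centred on 0. Ifi203 with Mndal stands at 0.49 and the other 35 pairs lie between -0.02 and 0.04.

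The exception, Ifi203 with Mndal, was seen in the unthinned counts as well. Ifi203 was found in 157 cells and Mndal in 98, and 85 cells had both, which is 54.1% of the Ifi203 cells and 86.7% of the Mndal cells. Either gene was found in 170 cells, 4.52% of all. The 69 cells with at least 3 UMIs of the 2 genes together, 1.83% of cells, held 436 of their 572 UMIs, 76.2%. These 69 cells had a median of 7626 UMIs, against 3836 in the other cells, so depth moved with the count. At 2000 UMIs per cell Ifi203 was in 77 cells, Mndal in 37 and both in 22, where the product of the shares gives 0.933. The r depended on the random thinning: over 20 draws its median was 0.359 at 1000 UMIs (0.181 to 0.593), 0.513 at 2000 UMIs (0.416 to 0.662) and 0.630 at 3000 UMIs (0.538 to 0.712). The single draw reported above, 0.493, lies in the upper part of the first range.

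**Figure D5:**
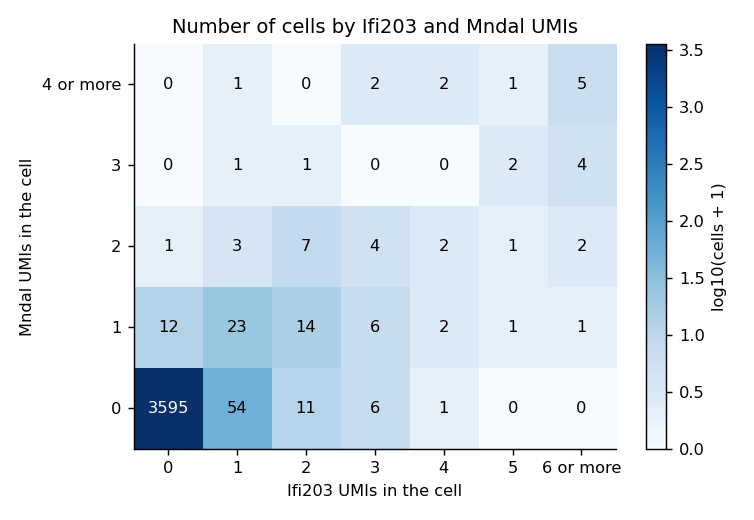
Number of cells by Ifi203 UMIs (horizontal) and Mndal UMIs (vertical) among 3765 cells, without thinning; colour is log10 of the number plus 1. The square without either gene holds 3595 cells, 13 cells have Mndal without Ifi203, and 72 have Ifi203 without Mndal.

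The 2 genes are neighbours whose sequences are partly alike, which bears on how their counts can be read. In GENCODE M21 the annotated spans of Ifi203 and Mndal overlap on the same strand. Of the 50-base windows in the last 500 transcript bases, 21.95% of those of Mndal were also found in Ifi211, another HIN-200 gene with no row in this table, and 0 of those of Ifi203 were found in another gene. Each gene has 2 promoter windows in RefSeq, and the pair below (GRCm38.p6, minus strand) was 97.6% identical over 289 aligned bases. Capitals mark the 7 differing bases and the 10 bases of the gap inside the alignment, and bases beyond its ends are in lower case.
Ifi203, chr1:173942443-173942742, minus strand: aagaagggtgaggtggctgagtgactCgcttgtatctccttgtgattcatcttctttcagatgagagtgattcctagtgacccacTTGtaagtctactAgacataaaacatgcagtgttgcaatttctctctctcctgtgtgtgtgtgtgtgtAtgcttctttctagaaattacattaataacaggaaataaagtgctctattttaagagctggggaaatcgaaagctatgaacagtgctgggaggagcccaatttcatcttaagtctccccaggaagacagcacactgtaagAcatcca
Mndal, chr1:173880138-173880437, minus strand: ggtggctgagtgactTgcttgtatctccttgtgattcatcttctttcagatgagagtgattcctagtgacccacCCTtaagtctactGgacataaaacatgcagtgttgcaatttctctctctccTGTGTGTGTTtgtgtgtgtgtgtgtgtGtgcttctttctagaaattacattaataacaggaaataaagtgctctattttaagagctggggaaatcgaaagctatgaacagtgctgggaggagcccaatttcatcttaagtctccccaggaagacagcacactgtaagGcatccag
Both printed windows had a match to TTTCNNTT, 26 to 33 bases before the start in Ifi203 and 27 to 34 bases before it in Mndal. Whether reads of one gene were counted for the other cannot be told apart here from the presence of both transcripts in a cell. Ifi202b, a further member of the family, had 71 UMIs in 48 cells, and 17 of those cells, 35.4%, were among the 170 cells with Ifi203 or Mndal.

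Cells with the pair at 2000 UMIs were compared with other cells, with levels and ratios taken from all UMIs of each cell. The 92 cells with Ifi203 or Mndal had a median of 5789 UMIs and the 2963 others 4485. Of the members with at least 500 UMIs 1 of 5, Ifitm3, was at least 1.5-fold higher, against 2.67% of 5385 genes, and 0 were lower by this fold rule, against 3.94%. Ifitm3 had 155 CPM in the cells with the pair and 91.9 CPM in the others, a ratio of 1.69 (1.35 to 2.08). H2-K1 had 183 CPM in these cells and 238 CPM in the others, a ratio of 0.770 (0.631 to 0.930), and B2m had 260 and 262 CPM, a ratio of 0.991 (0.839 to 1.16). Ifi202b had 13 UMIs, 21.7 CPM, in these cells and 53 UMIs, 3.34 CPM, in the others, a ratio of 6.48 (3.24 to 12.05). Among related lists, the interferon gamma-induced list had a ratio of 1.36 (1.09 to 1.67) and the loading and immunoproteasome list 1.12 (1.06 to 1.18). The former has 2 genes with at least 500 UMIs, Gbp7 and Gbp3, of which Gbp3 alone was at least 1.5-fold higher. The type I interferon-induced list, with no gene at 500 UMIs in the 3055 cells, was not compared. The class I chains had 0.883 (0.788 to 0.987) and the receptor and JAK-STAT list 0.875 (0.739 to 1.03). In the 35 cells with at least 2 UMIs of the pair, the interferon gamma-induced list had 1.60 (1.13 to 2.19) and the class I chains 1.02 (0.854 to 1.22). At least 1 proliferation UMI was found in 62.0% of the 92 cells (51.2% to 71.9%) and in 74.5% of the others.

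Of the 6 astrocyte markers with at least 500 UMIs, 2 were at least 1.5-fold higher in these cells, and of 9 radial glia markers 0 were, by this fold rule, with a median ratio of 1.07. The astrocyte list summed to 1303 CPM in the cells with the pair and 944 CPM in the others, a ratio of 1.38 (1.28 to 1.48), and the 2 called were Aldh1l1 at 1.82 and Gja1 at 1.54. The radial glia list summed to 17164 CPM in these cells and 13622 CPM in the others, a ratio of 1.26. The genes with the largest ratios were Ociad2 (3.24), Prss23 (3.17), Dgkk (3.11), Pdlim4 (2.84) and Pak1 (2.68), picked by size after the values were seen. When all cells were ranked by astrocyte markers at 2000 UMIs, Ifi203 had 7.39, 17.8, 19.7, 22.4 and 43.6 CPM from the lowest to the highest bin. Mndal had 3.54, 8.60, 14.4, 10.0 and 18.9 CPM, and their joint level in the highest bin was 5.72 times that in the lowest. That ratio fell to 2.15 without the 189 cells of most UMIs and to 2.53 without Apoe in the list, so its size rested on few deep cells and on 1 marker, while its direction held in all 5 alternatives. Ifitm3 had 138 CPM in the highest and 71.7 CPM in the lowest of these bins, a ratio of 1.92 (1.63 to 2.26), and B2m 291 and 239 CPM, a ratio of 1.22 (1.11 to 1.34).

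Cells with Ccl2 were compared in the same way, although most held a single Ccl2 UMI. The 33 cells with Ccl2 at 2000 UMIs had a median of 5087 UMIs and the 3022 others 4491.5. Of the members with at least 500 UMIs 3 of 5 (H2-D1, Ifitm2 and Ifitm3) were at least 1.5-fold higher, against 6.61% of 5385 genes, and 0 were lower by this fold rule, against 14.2%. Ifitm3 had 200 CPM in the Ccl2 cells and 93.1 CPM in the others, a ratio of 2.14 (1.49 to 2.99), from 35 UMIs, and Ifitm2 had 125 and 77.5 CPM, a ratio of 1.62 (1.01 to 2.46). H2-D1 had a ratio of 1.72 (0.995 to 2.76). B2m had 211 CPM in the Ccl2 cells and 263 CPM in the others, and its ratio interval, 0.564 to 1.11, included 1. The G2/M genes summed to 5449 CPM in the Ccl2 cells and 10333 CPM in the others, a ratio of 0.527 (0.494 to 0.562), and 43 of 53 of them were at least 1.5-fold lower. Mki67 had 96.9 CPM in the Ccl2 cells and 274 CPM in the others. The values of the Ccl2 cells rest on 33 cells of 1 table and describe them alone.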

How the data were processed

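The authors deposited UMI counts, whole numbers without normalization, for every gene in each barcode. The submitters' processing notes name the mm10 build. Neither the aligner and counter nor the annotation is named (not given in the sources used here). The members and all gene lists were chosen with earlier results of these data known. The named genes are all 9 members, of each other pathway list the 4 genes with most UMIs and any defining gene at 0, and the 5 closest correlates of each member with at least 500 UMIs; further genes, those near 0 included, were chosen after their values were seen, and the cell cycle, stress and marker lists are given as sums with single genes as examples.

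Barcodes with at least 500 genes and at most 10% mt- UMIs were kept. Levels are sums of counts scaled to 1000000 UMIs. Cells were thinned without replacement to 1000 or 2000 UMIs with a fixed seed. Ratios used genes with at least 50 UMIs and correlations genes with at least 500. No doublet caller was run; leaving out the 5% of cells with most UMIs stood in for it. The scripts were tested on simulated data. Sequences are from RefSeq promoter windows (GRCm38.p6), of which the table held 8 of 9 members, and 3′ ends and positions from GENCODE M21. The tools were numpy 2.4.6 and scipy 1.17.1 under Python 3.11.15, with pandas 2.3.3, Biopython 1.88 and matplotlib 3.10.9. Alternatives were other gene and mitochondrial limits, thinning depths, seeds, cell cycle calls and scalings; those for the Ifi203 and Mndal pair and for single members' bins were chosen after seeing the data.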

Additional observations from a re-analysis of the deposited data

Results flagged for a closer look

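The 235 barcodes left out by the filters also held the members. Their 90 member UMIs among 195947 came to 459 CPM (369 to 565), above the 15.3 CPM that 3 counts would give, against 779 CPM (766 to 792) in the 3765 kept cells. H2-K1 held 33 of these UMIs, B2m 23, H2-D1 and Ifitm2 10 each, Ifitm3 7, Ifi203 4 and Bst2 3, while Mndal and Ccl2 had 0. The signal stood out because it lies in barcodes that the main comparisons left out. Looser gene and mitochondrial limits, among the alternatives below, took part of these barcodes in. Whether the signal comes from cells or from free RNA was not tested.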

How the results depend on the processing

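The summed level of the 9 members lay between 771 and 784 CPM and that of the type I interferon-induced list between 58.2 and 61.2 CPM under 6 other filters on barcodes, within their intervals; without the 5% of cells with most UMIs Ifitm3 stood at 86.2 and Ifi203 at 19.2 CPM, below their intervals. The cycling ratio of the members, 0.911, stayed below 1 in 15 of 15 alternatives, but moved outside its interval in 8: 0.877 with at most 5% mitochondrial UMIs, 0.866 with the call made at 2000 UMIs, 0.965 (0.894 to 1.04) with thinned UMIs summed, 0.790, 0.808 and 0.793 between bins by S and G2/M, G2/M and S genes, 0.959 (0.896 to 1.03) among cells at or under the median UMIs and 0.877 among those over it. Intervals at 0.965 and 0.959 include 1. The mean r of the 36 pairs, 0.0192, was 0.00682 with at most 5% mitochondrial UMIs, 0.00337 without barcodes that hold an N, 0.0298 at 3000 UMIs, 0.0118 with another seed and 0.0489 for unthinned log-scaled counts; its median over 20 thinning draws was 0.0155. The r of Ifi203 and Mndal was 0.196 with at most 5% mitochondrial UMIs, 0.224 without barcodes that hold an N and 0.313 with another seed. Over 20 draws each, these 2 filters gave medians of 0.408 (0.196 to 0.571) and 0.341 (0.210 to 0.482), against 0.359 without them. The low values of the 2 filters are themselves single draws out of these 20, and 0.196 is the lowest of its 20. No paired analysis was possible because the labels give 1 group and the barcodes carry no sample. Depth limits Ccl2, Mndal, Bst2 and Ifi203, which have 105 to 383 UMIs in all, and one pooled table gives no spread between cultures.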

Other observations

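The members were also read along 4 stress and response programs, with cells in 5 bins at 2000 UMIs. Along hypoxia and glycolysis genes H2-D1 had 72.2 CPM in the highest and 54.8 CPM in the lowest bin, a ratio of 1.32 (1.08 to 1.62), with B2m at 1.19 (1.08 to 1.32) and H2-K1 at 1.17 (1.06 to 1.30). On the same ranking Bst2 had a ratio of 1.55 (1.07 to 2.27) and Ifi203 of 1.66 (1.18 to 2.34), while Ifitm2 had 1.02 (0.854 to 1.21). Along p53 target genes Ifitm2 had 92.3 CPM in the highest and 66.6 CPM in the lowest bin, a ratio of 1.39 (1.16 to 1.67), and Ifitm3 had 1.24 (1.05 to 1.46). Along amino acid and ER stress genes the sum of the members had a ratio of 0.998 (0.944 to 1.05), though Ifitm3 was lower in the highest bin, with 80.8 CPM there and 99.03 CPM in the lowest. Along immediate early genes the sum had a ratio of 1.07 (1.01 to 1.13), with B2m at 1.13 (1.02 to 1.24). The same 3055 cells enter each ranking, and the separate part of each program was not tested.

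Members also differed with depth itself. Between the bins of most and fewest UMIs per cell, Mndal had 15.5 and 4.84 CPM, a ratio of 3.19 (1.33 to 10.0), Ifi203 31.1 and 13.6 CPM, a ratio of 2.29 (1.34 to 4.26), and Ifitm3 109 and 70.7 CPM, a ratio of 1.54 (1.21 to 1.99). H2-D1 had 54.8 CPM in the bin of most and 57.2 CPM in the bin of fewest UMIs, a ratio of 0.958 (0.727 to 1.28).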
